A study of Mus musculus with 2 samples.

Results

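The prostaglandin and leukotriene synthesis enzymes are a set of 10 listed mouse genes that turn membrane arachidonate into lipid mediators. A gene was measured through each array probe set whose only gene symbol in the platform annotation was that gene's. Of the 10 genes, 8 had such a probe set, 13 probe sets in all, out of 18193 genes with a probe set of their own. No signal is given for Ptgs1, for which the annotation used lists no probe set, or for Ptges3, whose 2 probe sets are also assigned to its pseudogene. Both enter only the description of promoter sequences.

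The study profiled 2 samples on 1 Affymetrix array each. The first was ID8-induced MDSC (myeloid-derived suppressor cells, immature myeloid cells that restrain T cells): C57BL/6 femur marrow cells kept for 4 days in a transwell plate below ID8 cells, a mouse ovarian tumour line. The labels write the line as ID8 and as 1D8, and name either tumour cell supernatant or the tumour cells themselves as the inducer. The second was control bone marrow cells of the same strain and bone, with no stated time in culture. Both were labelled CD11b+Gr1+, and both had RPMI-1640 medium with 5% FBS. Whether animals were pooled and whether CD11b+Gr1+ cells were purified is not given in the sources used here.

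All values below are MAS5 signal intensities of the ID8-induced MDSC array. The control signals stood in 2 interleaved descending sequences down the list of probe sets and are not tied to genes. No fold change between the samples can therefore be given. With 1 array there is no replicate error, no SD and no test, and the number of arrays limits the precision of every value. Each signal is placed by its percentile, the share of all 45037 probe sets on the array with a lower signal. The floor used below is the 40th percentile, a signal of 68.8, and the array's median was 89.5. Probe sets differ in how well they bind their transcript, so a brighter probe set does not show a more abundant transcript. Where genes or groups are called high or low below, this is their place on the scale of the array and not an order of abundance.

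Eicosanoids are made in sequence. Cytosolic phospholipase A2 frees arachidonate from membranes, and the cyclooxygenases turn it into prostaglandin H2, from which terminal synthases make prostaglandin E2 and other prostanoids. In the second branch, 5-lipoxygenase with its membrane partner FLAP makes leukotriene A4, which is converted to leukotriene B4, a neutrophil attractant, or to the cysteinyl leukotrienes. In tumour-associated myeloid cells, cyclooxygenase 2 and prostaglandin E2 are known for their part in suppressing T cells.

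Most of the enzymes gave signals well inside the upper part of the array. Of the 13 probe sets, 12 lay above the floor (92.3%), against 63.5% of all probe sets with 1 gene symbol. At or above the 90th percentile lay 5 of the 13, against 11.3% of all, and at or above the 99th lay 2, against 0.947%. Their median percentile was 88.2, against 53.9 for all probe sets with 1 gene symbol. Counted by the brightest probe set of each gene, 7 of 8 genes passed the floor (71.3% of all genes), 4 reached the 90th percentile (14.8%) and 2 reached the 99th (1.39%). The exception at the low end was Ltc4s. With each gene's mean log2 signal in place of its brightest probe set, Lta4h fell below the 90th percentile, to 87.7. Ptgs2 then fell below the 99th, to 98.9. By that mean, 8.63% of all genes reached the 90th percentile. The genes were chosen with earlier results of these data known, so these counts describe the list and test nothing.

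**Figure D1:**
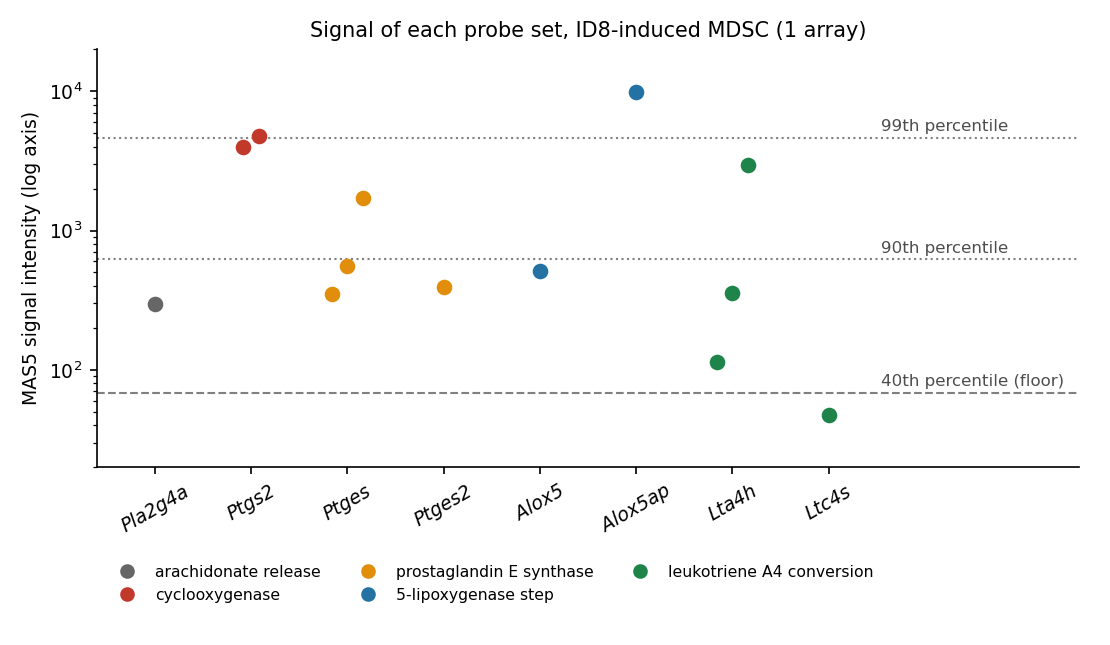
MAS5 signal intensity (log axis) of each of the 13 probe sets on the ID8-induced MDSC array, by gene and coloured by role; each point is 1 probe set, the dashed line is the floor and the dotted lines are the 90th and 99th percentiles of the array. The points of Alox5ap (9945) and Ptgs2 (4732 and 3966) lie highest, those of Lta4h spread from 113 to 2960.1, and the point of Ltc4s (47.1) is the 1 below the floor.

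At the first step, Pla2g4a, which encodes cytosolic phospholipase A2 alpha, read 297 on its 1 probe set. That is the 81.1st percentile and 4.32 times the floor. In the RefSeq table of the GRCm38.p6 assembly, Pla2g4a and Ptgs2 are neighbouring protein-coding genes on chromosome 1.

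At the cyclooxygenase step, Ptgs2 (cyclooxygenase 2, the inducible form) read 4732 and 3966 on its 2 probe sets, at percentiles 99.02 and 98.7. Both probe sets were high and close to each other. Their ratio was 1.19, whereas the median ratio of brightest to dimmest was 2.12 over the 4695 genes with the same number of probe sets, of which 13.8% had a lower ratio. On this array, 440 probe sets gave a higher signal than the brighter one. The constitutive form, Ptgs1, has no value here, so the balance of the cyclooxygenases cannot be described.

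Among the prostaglandin E synthases, Ptges (microsomal prostaglandin E synthase 1, which acts after cyclooxygenase 2) read 1699, 553 and 353 on its 3 probe sets. These signals lie at percentiles 96.3, 88.9 and 83.7, so all of them were above the floor, but only the brightest passed the 90th percentile. The brightest was 4.82 times the dimmest. The median ratio over the 2366 genes with as many probe sets was 3.48, and 63.1% of them had a lower ratio than Ptges.

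Ptges2, a membrane-associated prostaglandin E synthase, read 396 on its 1 probe set, at percentile 85.2. It was 5.76 times the floor.

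At the 5-lipoxygenase step, Alox5ap (FLAP, the membrane protein that hands arachidonate to 5-lipoxygenase) read 9945, at percentile 99.8. Only 91 probe sets on the array gave a higher signal. Alox5, which encodes 5-lipoxygenase itself, read 512 at percentile 88.2, which is 7.44 times the floor. Each of these genes rests on 1 probe set, so no second reading within the array checks the value.

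Leukotriene A4 is converted by 2 of the measured enzymes. Lta4h (leukotriene A4 hydrolase, which makes leukotriene B4) read 2960.1, 355 and 113 on its 3 probe sets, at percentiles 98.1, 83.7 and 58.2. Its readings disagreed by 26.1-fold, a larger disagreement than in 95.6% of the 2366 genes with as many probe sets. All 3 lay above the floor, but the dimmest only by 1.65 times. The brightest is of the class with the suffix letter a, which Affymetrix uses for probe sets that detect several transcripts of 1 gene.

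Ltc4s (leukotriene C4 synthase, which adds glutathione to leukotriene A4) read 47.1 on its 1 probe set. This is the 26.2nd percentile and 0.685 of the floor, and 33212 probe sets were brighter. No detection call came with the table, so a signal under the floor does not show that the transcript was absent.

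**Figure D2:**
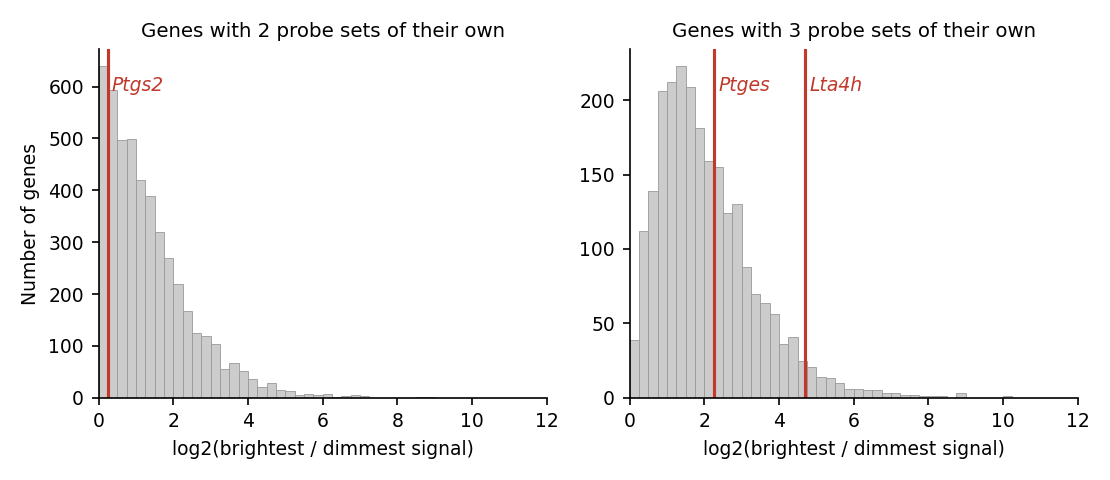
Number of genes (vertical axis) by the log2 ratio of the brightest to the dimmest probe set (horizontal axis), for genes with 2 probe sets (left) and 3 probe sets (right) of their own on the ID8-induced MDSC array; red lines mark the synthesis enzymes. Ptgs2 (ratio 1.19) lies at the low end, Ptges (4.82) near the middle and Lta4h (26.1) in the upper tail.

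Promoter windows are shown for the prostaglandin genes Ptgs2 and Ptges, whose probe sets all lay above the floor, and for Ltc4s, whose probe set did not. Sequences are from RefSeq (GRCm38.p6), from 250 bases before to 50 bases after the gene start, 5′ to 3′ on the gene's strand. Capitals mark matches to the motifs searched. The windows are chr1:150099781-150100080 (plus strand) for Ptgs2, chr2:30903248-30903547 (minus strand) for Ptges and chr11:50238483-50238782 (minus strand) for Ltc4s.
Ptgs2: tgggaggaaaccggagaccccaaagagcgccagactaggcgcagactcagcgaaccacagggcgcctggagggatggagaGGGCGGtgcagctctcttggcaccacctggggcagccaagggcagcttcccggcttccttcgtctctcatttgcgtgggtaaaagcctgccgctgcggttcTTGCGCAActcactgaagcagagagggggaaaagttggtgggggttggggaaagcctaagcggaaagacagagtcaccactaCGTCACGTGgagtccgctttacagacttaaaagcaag
Ptges: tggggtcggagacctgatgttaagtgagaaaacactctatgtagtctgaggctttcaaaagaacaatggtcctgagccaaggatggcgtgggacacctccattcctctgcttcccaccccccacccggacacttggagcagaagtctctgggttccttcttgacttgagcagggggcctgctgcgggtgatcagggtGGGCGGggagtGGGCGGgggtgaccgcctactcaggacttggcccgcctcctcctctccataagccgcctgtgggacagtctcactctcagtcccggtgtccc
Ltc4s: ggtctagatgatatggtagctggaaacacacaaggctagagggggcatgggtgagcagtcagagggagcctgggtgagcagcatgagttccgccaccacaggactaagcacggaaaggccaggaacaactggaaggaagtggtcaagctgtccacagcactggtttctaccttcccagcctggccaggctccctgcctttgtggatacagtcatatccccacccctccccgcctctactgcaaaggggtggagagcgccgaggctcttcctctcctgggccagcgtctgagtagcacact

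Of the 10 listed genes, 9 matched the promoter table, with 10 windows, since Pla2g4a has 2. Motifs were searched as plain letters on both strands. The TATA box was searched for as TATAAA and, separately, with the variant spelling TATATA. The letters TTNNGCAA stood for a site of C/EBP factors. The letters CGTCA stood for the half-site of a cyclic AMP response element (CRE). The E-box was searched for as CACGTG. The GC box was searched for as GGGCGG. The letters GGG, then NNN (any bases), then TTCC stood for an NF-kB site. Other spellings of that site were not searched, so a window without these letters may still hold one. The Ptgs2 window held a C/EBP match at position -69 that reads the same on both strands, and a GC box at -170. Positions are counted from the RefSeq start, which is position 1. That start was not compared with a measured transcription start, so the positions may differ from those counted from one. It also held a CRE half-site at position 14 and an E-box at 17, which overlap by 2 bases. C/EBP letters occurred in 1 of the 10 windows, against 10.8% of all 32851 windows of that length.

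The Ptges window held GC boxes at -53 and -42, and the Ltc4s window held none of the motifs. An empty window was not particular to Ltc4s. The windows of Ptgs1 and Lta4h and a window of Pla2g4a also held none, and all Lta4h probe sets lay above the floor. GC boxes occurred in 4 of the 10 windows, against 35.7% of all. CRE half-sites and E-boxes each occurred in 2 of the 10, against 20.8% and 7.15%. The first TATA box spelling occurred in 1 window, of Pla2g4a, against 13.6% of all. The variant spelling and the NF-kB letters occurred in 0, against 5.67% and 5.56%. A match of letters is a description of the window and does not show that a factor binds there, and the array measured no binding.

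**Figure D3:**
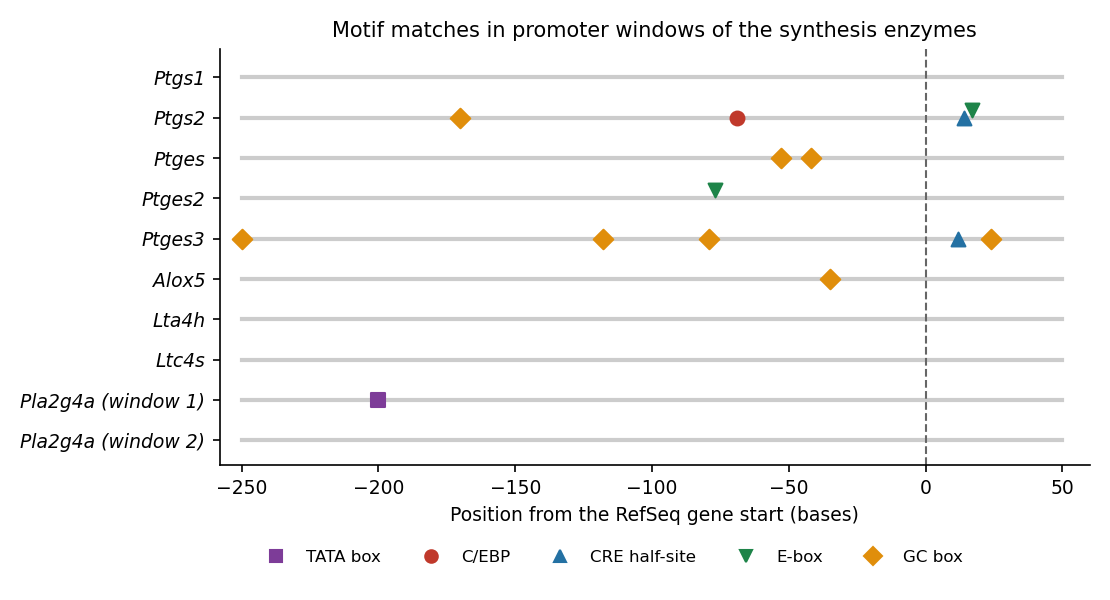
Motif matches in the 10 promoter windows of 9 listed genes, by position from the RefSeq gene start in bases (horizontal axis); each row is 1 window, each symbol the first base of a match on either strand, and the dashed line is the gene start. The Ptgs2 window carries the C/EBP match (-69) and the overlapping CRE half-site and E-box (14 and 17), and GC boxes lie in the windows of Ptgs2, Ptges, Ptges3 and Alox5.

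Around these enzymes, 98 other genes of the eicosanoid pathway were listed in 9 roles, and 89 of them had a probe set of their own. By the brightest probe set, 70 passed the floor (78.7%) and 25 reached the 90th percentile (28.1%), against 71.3% and 14.8% of all genes. With each gene's mean log2 signal in place of its brightest probe set, 16 of the 89 reached the 90th percentile (18.0%), against 8.63% of all genes. Without the regulators the counts were 54 and 11 of 73 (74.0% and 15.1%), close to the shares over all genes. The counts by role below are to be read beside the same shares of all genes, 71.3% above the floor and 14.8% at or above the 90th percentile. For 20 of the 89, the probe sets lay on both sides of the floor. These lists too were chosen with earlier results of the data known.

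Of 16 regulators, 16 passed the floor and 14 reached the 90th percentile by the brightest probe set, and the median percentile was 97.99. For 6 of the 16, probe sets lay on both sides of the floor. With the mean over probe sets, Cebpd, Creb1, Elavl1, Celf2, Mapk14 and Anxa1 fell below the 90th percentile. The others of the 14 did not. Cebpb, a C/EBP factor that acts on the Ptgs2 promoter, read 10975 and 8995 on its 2 probe sets. Jun, an AP-1 subunit, read 6154 and 2190.3. Hsp90aa1, a chaperone that works with the Ptges3 product, read 6834 on the brightest and 22.9 on the dimmest of its 5 probe sets. Anxa1 (annexin A1, known to restrain phospholipase A2) read 6656 and 50.1. The regulators with the lowest percentiles were Mapk14 (p38 kinase) at 683, Tia1 (an RNA-binding protein that acts on Ptgs2 mRNA) at 356 and Nr4a2 (a nuclear receptor induced by prostaglandin E2) at 197. Cotl1, which encodes a protein that binds 5-lipoxygenase, is counted among the 16 regulators. It was added here after its values were seen: its 6 probe sets read between 1412 and 3251.

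Of 17 other phospholipase A2 genes, 12 passed the floor and 1 reached the 90th percentile, and the median percentile was 46.5. That 1 gene was Pla2g7, which encodes the hydrolase of platelet-activating factor, with 3922. Pla2g6 (calcium-independent phospholipase A2) read 321.5 at its brightest and 51.7 at its dimmest, Pla2g12a 311 and Pla2g4e 181. The secreted forms Pla2g5 and Pla2g12b read 18.5 and 34.3, and the cytosolic form Pla2g4f 44.5, all below the floor.

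Of 8 genes listed under arachidonate re-esterification (the return of arachidonate to phospholipids), 6 passed the floor and 3 reached the 90th percentile. Lpcat2 (a lysophosphatidylcholine acyltransferase that also makes platelet-activating factor) read 4585 and 197.5 on its 2 probe sets. Acsl5 (an acyl-CoA synthetase) read 2779. Mboat7 (which adds arachidonate to lysophosphatidylinositol) read 2652 on its brightest and 137 on its dimmest probe set. Its mean over probe sets, 478, lay below the 90th percentile. Acsl4 (the acyl-CoA synthetase that prefers arachidonate) read between 367 and 535 on its 3 probe sets. Lpcat3 read 213, and the synthetase genes Acsl3 and Acsl6 lay below the floor, with 54.3 and 60.01 on their brightest probe sets.

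Of 8 other prostanoid synthase genes, 6 passed the floor and 0 reached the 90th percentile. Prxl2b (a prostaglandin F synthase) read 386, Tbxas1 (thromboxane synthase) 342, Ptgds (lipocalin-type prostaglandin D synthase) 222 and Cbr1 (a carbonyl reductase that acts on prostaglandin E2) 128. Hpgds (haematopoietic prostaglandin D synthase) read 76.1, near the floor, while Cbr3 and Ptgis (prostacyclin synthase) read 51.7 and 49.96, below it.

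The other lipoxygenases passed the floor in 2 of 6 cases, and their median percentile was 28.6. Alox12e read 145 and Aloxe3 139. Alox8 read 60.1, Alox15 (which makes intermediates of lipoxins) 41.8, Alox12 (the platelet form) 38.3 at its brightest and Alox12b 31.7, all below the floor.

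Genes listed as transferases related to Ltc4s or as enzymes acting after it passed the floor in 5 of 6 cases, and 3 reached the 90th percentile. Mgst2 (a microsomal glutathione transferase that can also make leukotriene C4) read 677 at percentile 90.8, on 1 probe set. Mgst1, a related transferase, read 4943 on one probe set and 39.1 on the other, which lies below the floor. Ggt5 (which converts leukotriene C4 to D4) read 752 at its brightest and 51.7 at its dimmest. With the mean over probe sets, Mgst1 (444) and Ggt5 (168) fell below the 90th percentile. Dpep1 (which converts leukotriene D4 to E4) read 100.05 at its brightest, Mgst3 90.5 and Dpep3 54.8.

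Of 11 inactivation and transport genes, 9 passed the floor and 2 reached the 90th percentile. Abcc1 (an exporter of leukotriene C4) read 2400.1 and 833. Ptgr1 (which inactivates leukotriene B4 and prostaglandins) read 622. Cyp4f18 (a neutrophil cytochrome that oxidises leukotriene B4 in mouse) read 454 at its brighter probe set. Ptgr2 read 248 at its brightest of 6 probe sets and 11.2 at its dimmest. Hpgd, the main enzyme of prostaglandin E2 breakdown, lay below the floor on both of its probe sets, with 45.9 and 24.7. Ephx2, an epoxide hydrolase, read 70.4, just above the floor, and Cyp4f14 read 42.5, below it.

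Receptors were measured in the same cells. Of 10 prostanoid receptor genes, 8 passed the floor and 0 reached the 90th percentile. Ptgir (the prostacyclin receptor) read 468, Ptgdr (a prostaglandin D2 receptor) 212 and Tbxa2r (the thromboxane receptor) 211. Of the prostaglandin E2 receptors, Ptger4 read 184 and 45.8 on its 2 probe sets, on either side of the floor. Ptger1 lay below it at 64.2, and so did Ptger3 at 13.3, each on its brightest probe set. Ptger2, counted among the 10 receptor genes and added here after its value was seen, read 124. Ptgfrn, a regulator of the prostaglandin F receptor, read 70.3 at its brightest.

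Of 7 leukotriene and resolvin receptor genes, 6 passed the floor. Ltb4r1 (the high-affinity leukotriene B4 receptor, which guides neutrophils) read 1500.4 at percentile 95.8. Fpr2 (a formyl peptide receptor that also binds lipoxin) read 8970.2 at percentile 99.7. Gpr18 read 243 and Cmklr1 90.9 at its brightest. The receptors of the cysteinyl leukotrienes lay near the middle of the array, with Cysltr2 at percentile 49.1 and Cysltr1 at percentile 45.8 on its brightest probe set, and Oxgr1 read 12.6, below the floor.

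**Figure D4:**
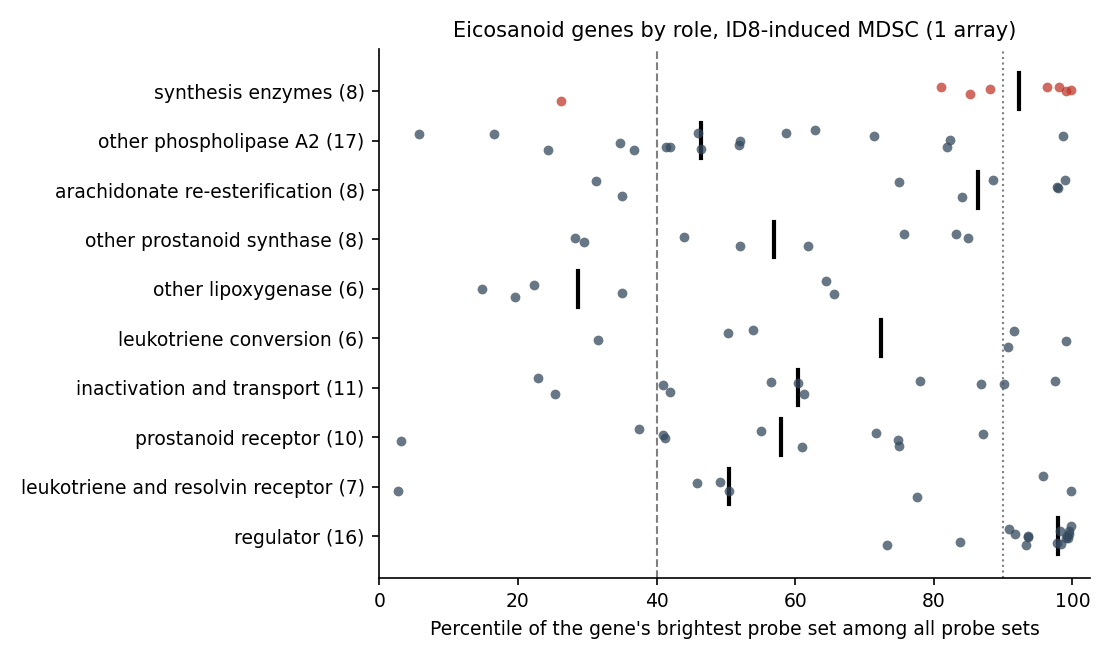
Percentile of each gene's brightest probe set among all probe sets of the ID8-induced MDSC array (horizontal axis), for the 8 measured synthesis enzymes (red, top) and the 89 measured genes of 9 other roles (dark), with the number of genes in brackets; each point is 1 gene, black bars are medians, and the dashed and dotted lines are the 40th and 90th percentiles. The medians are 92.2 for the synthesis enzymes, 28.6 for the other lipoxygenases and 97.99 for the regulators, and every row but that of the regulators has points on both sides of the 40th percentile.

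Neutrophil and MDSC markers were strong: 7 of the 7 measured lay at or above the 90th percentile, with Itgam, which encodes CD11b, at 2375. Of the 8 listed, Ly6c1 had no probe set of its own. No measured marker of this list reads the Gr1 part of the label. Of the monocyte and macrophage markers, 4 of 5 passed the floor and 3 reached the 90th percentile. By their brightest probe sets, 71.3% of all genes passed the floor and 14.8% reached the 90th percentile, so passing the floor does not by itself show that a cell type was present. Several of these enzymes are also made by other cells, and in bulk RNA fewer cells of a type and less RNA per cell cannot be told apart. Mast cell and basophil markers, of cells that make cysteinyl leukotrienes, passed the floor in 4 of 8 cases, between 20.2 and 254. Above it on their brightest probe sets were Mcpt8 (254), Gata2 (181), Tpsb2 (161) and Ms4a2 (81.0). Below it were Cma1 (50.05), Cpa3 (32.3), Mcpt4 (26.9) and Fcer1a (20.2). Platelet and megakaryocyte markers, of cells that make thromboxane, passed in 7 of 7 cases, between 109 and 308. Markers of epithelium and mesothelium, the origin of the ID8 line, passed in 5 of 8 cases, between 21.6 and 159, fibroblast and stromal markers in 2 of 7, between 37.5 and 270.02, and endothelial markers in 2 of 5, between 24.2 and 144. Of these 35 markers of other cells, 0 reached the 90th percentile, and their part in the signals of the enzymes was not tested.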

How the data were processed

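RNA of 2 samples was measured on 1 Affymetrix array each. Per the labels' protocols, RNA was extracted with TRIzol, and 6 ug of it went into biotinylated cRNA. The deposited values are signal intensity on a linear scale, made with MAS5 per the submitters' processing notes. Neither its version nor a scaling target is given in the sources used here, and no detection calls were used.

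From row to row the signal went up in 49.9% of 45036 steps of the ID8-induced column and in 6.89% of those of the control column (0 within each of its 2 sequences), so the control column entered no description of a gene. The other column was used as deposited. The annotation gave 1 gene symbol to 34945 of 45037 probe sets, which were kept. The 932 with several symbols and the 9160 without one were left out. Each probe set of the 10 genes was read separately. Genes of wider lists were summarised by the brightest probe set, which raises genes with many probe sets. In each role up to 4 of the highest and 3 of the lowest genes are named. Ptger2 and Cotl1, which enter the counts of their lists, were added afterwards. Of the listed symbols, 2 were updated through RefSeq synonyms. No tests were planned or run. Motif letters were matched in RefSeq promoter windows, and the scan recovered 200 of 200 motifs planted in simulated windows. A planned comparison of protein sequences was not made, since no protein sequences were used here. The members and lists were chosen with earlier results of these data known. Alternatives tried were the 20th or 60th percentile as the floor, the 80th or 95th in place of the 90th, probe sets without a suffix letter, and the mean log2 signal (plus 1) over a gene's probe sets. Software was pandas 2.3.3, numpy 2.4.6 and matplotlib 3.10.9 under Python 3.11.15.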

Additional observations from a re-analysis of the deposited data

Results flagged for a closer look

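The control bone marrow column is a measured column that no description above uses. Its highest signal, 26083.92, stood in the first row of the list. Its signals formed 2 descending sequences, interleaved down the probe set list. From row to row the signal went up in 22454 of 45036 steps of the ID8-induced column and in 3103 of the control column. The reason for that order was not tested.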

How the results depend on the processing

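Each of the 5 counts over the synthesis enzymes and the wider lists was recomputed under 3 or 4 alternatives, and 16 of 18 recomputed counts stayed within 1.5 times the reported one. The exceptions were the probe sets of the enzymes at or above the 90th percentile, 5 as reported and 11 at the 80th percentile (5 at the 95th), and the wider genes at or above the 90th percentile, 25 as reported and 16 with the mean over a gene's probe sets. Ltc4s passed the floor only when it was set at the 20th percentile. Of 14 recomputed signals of single enzymes, 3 moved by over 1.5 times: Lta4h to 493 and Ptges to 692 with the mean over probe sets, and Lta4h to 355 with probe sets without a suffix letter. The last alternative gave no value for Ltc4s and Pla2g4a, whose probe sets all have a suffix letter. No paired analysis was possible because each group has 1 array and no result comes from a test. With 1 array, neither the spread between cultures nor that between arrays is known.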
